A study of Rattus norvegicus with 18 samples.

Results

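RU486 (RU), also called mifepristone, was given to rats on the day of proestrus, and their peri-ovulatory follicles were compared at 22:00 of that day with those of untreated rats. Samples were taken by their titles, 3 of the group RU PeF and 3 of the group control PeF, which are 6 of the 18 samples of the series. RU PeF came from Crl:CD(SD) rats that received 1 oral dose of 100 mg/kg RU486 at 10:00 of proestrus. Control PeF came from untreated rats of the same strain. The compound reached the whole animal and not the follicle alone. For comparison, IM PeF came from rats given 4 mg/kg of indomethacin (IM), which blocks prostaglandin production by cyclooxygenases, by mouth at 16:00 and collected at 22:00. RU UF and control PoF were collected at 10:00 of the next day, estrus, from rats given RU486 and from untreated rats. RU UF follicles were unruptured and control PoF follicles were post-ovulatory, so at estrus treatment and rupture cannot be told apart.

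Follicles were cut from frozen ovary sections of 8 micrometres by laser microdissection, 15 follicles in each phase, and total RNA was labelled with biotin and hybridized to an Affymetrix array with 31099 probe sets. The study states 3 animals in each group but the labels do not tie a sample to an animal, so p-values measure only the spread between these samples, and arrays may not be separate animals. A whole follicle holds granulosa cells, theca cells, vessels and an oocyte, so fewer cells of a type and less RNA per cell cannot be told apart in these values.

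Ovulation is set off by the surge of luteinizing hormone (LH), which acts on granulosa cells through cyclic AMP and induces the progesterone receptor, prostaglandin synthesis and epidermal growth factor-like ligands. The progesterone receptor (Pgr) is a transcription factor of the nuclear receptor family that is present for a short time in granulosa cells of the follicle about to rupture, and mice without it do not ovulate. RU486 binds the progesterone receptor and the glucocorticoid receptor (Nr3c1), which is closely related, and blocks both. The part of each receptor in a difference cannot be told apart in this design. Genes of both receptors were therefore examined, followed by steroid and cholesterol synthesis, the LH response, the matrix and vessels, and the clock.

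Levels are given as log2 of the quantile-normalized signal plus 3.09, in log2 units, and a difference is RU PeF minus control PeF unless stated, so 1 unit is a doubling. Levels of different genes are not compared, since probe sets differ in brightness. A probe set was called where limma's adjusted p was under 0.05 over 18155 probe sets tested, and genes were counted by 1 probe set each. The 3 RU PeF arrays had median deposited signals of 16.36, 16.86 and 19.58, against 16.17, 22.3 and 4.4 in control PeF. Control PeF 3 stood apart: 45.7% of its probe sets were above background against 63.2% to 73% in RU PeF, and it scored 124.8 on the first principal component of the 22:00 samples while the other arrays scored -9.3 or lower. The log2 ratio of the 3' to the 5' probe set of Gapdh, a sign of RNA degradation, was 2.66 to 2.95 in RU PeF and 2.96 to 4.11 in control PeF. For beta-actin the ratio overlapped, at 5.24, 4.76 and 5.01 in RU PeF against 5.93, 5.46 and 4.23 in control PeF. The part of these array differences in the results was not tested. Results that lose their call without control PeF 3 are named beside their values or with the calls lost at the end.

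Between RU PeF and control PeF 886 of 10391 genes were called (8.53%), of which 392 were higher in RU PeF (3.77%) and 494 were lower (4.75%). These shares over all genes are the background for the list counts below. By probe sets, 1345 of 18155 were called (7.41%), 617 higher (3.40%) and 728 lower (4.01%), of which 656 differed at least 2-fold and 118 at least 4-fold. Without control PeF 3 the count was 1370 (565 higher and 805 lower). The direction of the calls depends on the scaling between arrays: 45.9% of the called probe sets were higher in RU PeF, against 75.7% of 903 after median scaling and 63.6% of 22 when signals were left as deposited. The median difference over all genes was 0.05 here, 0.31 after median scaling and 0.83 in the deposited signals. RU PeF against IM PeF, whose difference holds no control array although all groups share 1 estimate of the spread, gave 625 called genes (6.01%), 226 higher (2.17%) and 399 lower (3.84%) in RU PeF. By probe sets these were 948 (5.22%), 359 higher (1.98%) and 589 lower (3.24%). IM PeF against control PeF gave 0 calls by limma, with 2077 probe sets at an unadjusted p under 0.05, although 2360 were called once arrays were weighted by quality. The weights were 7.17 for IM PeF 3 against 0.66 and 0.29 for IM PeF 1 and 2. They were 3.96 for control PeF 2 against 0.47 and 0.11 for control PeF 1 and 3. The 2360 calls thus rest mostly on 1 array per group, and an effect of indomethacin cannot be read from them.

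Xlr5c, a gene of the X-linked lymphocyte regulated group, had levels of 4.95, 4.28 and 2.99 in RU PeF against 10.15, 9.63 and 9.21 in control PeF, a difference of -5.59 ± 0.52 (SE, n = 3 per group, limma adjusted p = 4.93e-06). Cxcr4, the receptor of the chemokine Cxcl12, had levels of 4.86, 4.77 and 4.7 in RU PeF against 10.57, 9.35 and 8.91 in control PeF. All 3 RU PeF arrays lay far below the lowest control for Cxcr4, and the difference was -4.83 ± 0.35 (28.5-fold, adjusted p = 1.17e-06). The other probe sets of Cxcr4 fell too, by 4.1 and 3.42. In IM PeF its levels were 10.03, 11.23 and 10.08, and the RU PeF minus IM PeF difference was -5.67 (adjusted p = 8.28e-08).

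F3, which encodes tissue factor and starts coagulation, had levels of 6.32, 5.45 and 5.37 in RU PeF against 9.48, 9.86 and 9.05 in control PeF (-3.75 ± 0.31, adjusted p = 3.08e-06). The groups did not overlap, which held for 25.9% of all genes. Thbd, thrombomodulin, which restrains coagulation, fell by 1.19 ± 0.23, and Anxa5, a phospholipid-binding anticoagulant protein, rose by 0.82 ± 0.24. A dimmer probe set of Thbd, at -0.58, did not pass. Of 10 coagulation genes tested 2 fell and 1 rose (background 4.75% lower and 3.77% higher), with a list median of -0.19 against 0.05 over all genes. Other large falls were Susd3 (-4.27 ± 0.65), Aard (-3.88 ± 0.69), the stomach proton pump subunit Atp4a (-3.32 ± 0.4), the secreted protein C1qtnf1 (-3.25 ± 0.32), Lyve1, a hyaluronan receptor known from lymphatic endothelium (-3.18 ± 0.47), Gpt2, an alanine aminotransferase (-3.16 ± 0.51), and the small heat shock protein Cryab (-3.09 ± 0.37). For each of these 7 genes the difference from IM PeF was called as well, from -3.39 for Gpt2 to -5.39 for Susd3.

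Crisp3 and Ppl were not above background on any RU PeF array, so their falls are bounds. Crisp3, a secreted cysteine-rich protein, was at least 5.42-fold lower in RU PeF than in control PeF (adjusted p = 0.0444), with control levels of 6.8, 7.42 and 3.27. Control PeF 3 was far below the other controls for it. IM PeF, at 2.89, 3.82 and 2.06, was as low as RU PeF for Crisp3, and the difference between the drugs was -0.42 (adjusted p = 0.891). Ppl, periplakin, a cytolinker of epithelial cells, was at least 3.31-fold lower (adjusted p = 0.0141).

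Fibin, a secreted protein, was among the largest rises, with levels of 9.8, 9.89 and 9.98 in RU PeF against 7.08, 6.64 and 7.22 in control PeF (2.91 ± 0.25, 7.51-fold, adjusted p = 3.08e-06). Every RU PeF array was above every control by more than the spread within either group. A brighter probe set of Fibin rose by 2.67. Aldh1a3, which makes retinoic acid, was not above background on any control PeF array and stood at 5.95, 6.12 and 6.01 in RU PeF, at least 4.29-fold higher (adjusted p = 0.00991). Slc30a1, a zinc exporter of the cell membrane, had levels of 5.45, 5.1 and 4.93 in RU PeF and was not above background in control PeF, at least 2.35-fold higher (adjusted p = 0.00537). Rab7b, a small GTPase of endosomes, rose by 2.47 ± 0.4 (1.86 without control PeF 3), with a second probe set at 2.13. Sdc1, a heparan sulfate proteoglycan, rose by 2.37 ± 0.4, by 1.64 without control PeF 3, and by 1.43 on its brighter probe set. Tmem139 rose by 2.4 ± 0.48, with levels of 5.97, 6.13 and 5.17 in RU PeF against 2.03, 4.37 and 3.66 in control PeF. Only 1 control array was above background for it, and control PeF 1 stood at the floor of the deposited signals. The smallest rise of Tmem139 with an array left out was 1.74.

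Control PeF 3 stood at the floor of the deposited signals for Etv1, Tgfb1, Pak3, Hapln1, Abcb1a and Slc30a1. Etv1, a transcription factor of the Ets family, rose by 2.67 with it and 1.5 without it. Tgfb1, a growth factor, rose by 2.49 with it and 1.58 without it, at 6.21, 6.29 and 6.96 in RU PeF against 4.21, 5.61 and 2.16 in control PeF. Pak3, a kinase, rose by 2.46 with it and 1.67 without it, and its other probe sets, at 0.79 and 0.78, did not pass. The call of Hapln1, a link protein of hyaluronan, was lost without control PeF 3 (1.59, adjusted p = 0.0901), and its other probe sets, at 1.64 and 1.46, did not pass. Abcb1a, a drug efflux pump, rose by 2.38 with that array and 1.52 without it, and its brighter probe set rose by 1.47 (limma adjusted p = 0.0114). Rgs2, a regulator of G protein signalling, rose by 2.36 ± 0.52 (2.73 without control PeF 3).

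**Figure D1:**
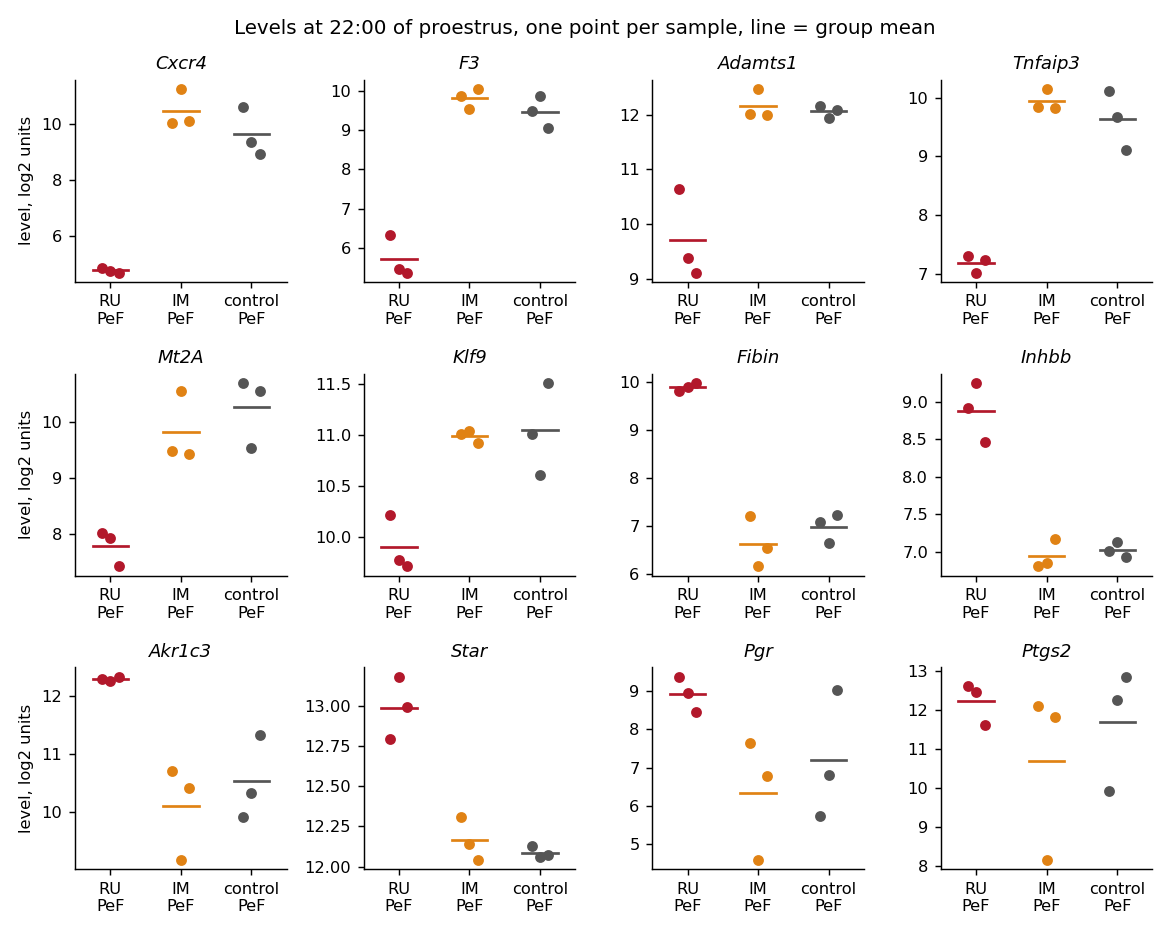
Levels (log2 units) of 12 genes in RU PeF, IM PeF and control PeF at 22:00, 1 point per sample and a line at each group mean, each panel on its own axis. Cxcr4, F3, Adamts1, Tnfaip3, Mt2A and Klf9 are lower and Fibin, Inhbb, Akr1c3 and Star higher in all 3 RU PeF samples than in any control, while Pgr and Ptgs2 overlap.

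Pgr itself had levels of 9.38, 8.96 and 8.45 in RU PeF against 5.74, 6.8 and 9.02 in control PeF. The controls spread widely and overlapped RU PeF, and the difference of 1.75 ± 0.73 did not pass (adjusted p = 0.154). Against IM PeF, at 7.64, 4.58 and 6.77, Pgr was higher in RU PeF by 2.6 (adjusted p = 0.0453). The glucocorticoid receptor gene Nr3c1 had levels of 7.85, 8.31 and 7.92 in RU PeF against 7.76, 7.9 and 7.98 in control PeF (0.15 ± 0.22, adjusted p = 0.722). Among 18 steroid receptors and partner proteins 2 fell, the co-chaperone Fkbp5 and the membrane-associated Pgrmc1 (-0.41), and 0 rose, against 4.75% lower and 3.77% higher over all genes. With median scaling 0 of the list fell and 1 rose.

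Of 17 genes listed as Pgr itself or its reported targets in follicles, 7 fell and 1 rose, while 9 did not pass, against 4.75% lower and 3.77% higher over all genes. The list median was -0.01, and the 9 that did not pass ran from -0.3 to 1.75. Besides Cxcr4 the falls held Adamts1, a secreted metalloproteinase that cleaves the proteoglycan versican and is needed for normal ovulation in mice. It had levels of 10.64, 9.38 and 9.11 in RU PeF against 12.16, 11.94 and 12.09 in control PeF (-2.35 ± 0.27, 5.11-fold, adjusted p = 4.76e-05). RU PeF 1 was the highest of its group and still below every control. Levels in IM PeF were 12.02, 12.47 and 12, which is 2.45 above RU PeF (adjusted p = 2.26e-05).

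Epas1, which encodes the hypoxia-inducible factor HIF-2α, fell by 2.06 ± 0.32 (9.04, 8.58 and 8.2 in RU PeF against 11.27, 10.98 and 9.75 in control PeF), while a dimmer probe set of the gene gave 0.97 and did not pass. Adcyap1r1, the receptor of the neuropeptide PACAP, fell by 2.06 ± 0.4, and its ligand Adcyap1, at 12.88, 12.93 and 12.85 in RU PeF against 12.59, 12.52 and 12.96 in control PeF, did not pass (0.2, adjusted p = 0.831). Snap25, a protein of vesicle fusion, fell by 1.36 ± 0.33, and the nuclear receptor Pparg fell by 1.25 ± 0.32, at 5.5, 5.31 and 5.64 in RU PeF against 7.25, 7.09 and 5.84 in control PeF. Control PeF 3 was the control nearest to RU PeF for Epas1 and Pparg. The member that rose was Edn2, endothelin 2, a peptide that contracts smooth muscle, with levels of 6.57, 7.47 and 6.02 in RU PeF against 4, 4.78 and 5.45 in control PeF (1.94 ± 0.48, adjusted p = 0.02). Its call was lost without control PeF 1 and without RU PeF 2. Values of Ctsl (-0.3), Hif1a (0.11), Cited2 (0.06), Arnt (-0.01), Il6 (0.72), Areg (1.04) and Ereg (1.33) did not pass.

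Of 24 glucocorticoid receptor targets 12 fell, 1 rose and 11 did not pass, against 4.75% lower and 3.77% higher over all genes, and 22 had a negative difference, with a median of -0.76 against 0.05 over all genes. With median scaling 4 fell (median -0.47, all genes 0.31), and with the deposited signals 0 fell (median -0.03, all genes 0.83). The count was 5 without RU PeF 3 and 7 without RU PeF 2. The metallothioneins, small proteins that bind zinc and copper, led the list. Mt1 had levels of 4.9, 4.34 and 3.72 in RU PeF against 6.82, 6.79 and 7.05 in control PeF (-2.56 ± 0.28, adjusted p = 3.01e-05). Mt2A had levels of 8.02, 7.92 and 7.42 in RU PeF against 10.7, 9.54 and 10.56 in control PeF (-2.48 ± 0.31, adjusted p = 1e-04). RU PeF and control PeF did not overlap for either gene. Mt1 is also counted among the falls of the list of Pgr and its reported targets.

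Metallothionein promoters are known for metal response elements, which bind the zinc-sensing factor Mtf1. Those of the genes that fell are shown from RefSeq (GRCr8, 250 bases before to 50 after the annotated start, 5′ to 3′ along the gene), with matches to TGCGCNC on either strand in capitals. Mt1 lies at chr19:10832926-10833225 and Mt2A at chr19:10838659-10838958, both on the minus strand.
Mt1 promoter: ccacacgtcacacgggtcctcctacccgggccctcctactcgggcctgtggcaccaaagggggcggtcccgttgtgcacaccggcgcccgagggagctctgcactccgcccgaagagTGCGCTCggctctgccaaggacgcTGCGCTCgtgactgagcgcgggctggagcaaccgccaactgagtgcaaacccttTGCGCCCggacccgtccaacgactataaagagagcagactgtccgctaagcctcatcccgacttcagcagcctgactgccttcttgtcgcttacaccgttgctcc
Mt2A promoter: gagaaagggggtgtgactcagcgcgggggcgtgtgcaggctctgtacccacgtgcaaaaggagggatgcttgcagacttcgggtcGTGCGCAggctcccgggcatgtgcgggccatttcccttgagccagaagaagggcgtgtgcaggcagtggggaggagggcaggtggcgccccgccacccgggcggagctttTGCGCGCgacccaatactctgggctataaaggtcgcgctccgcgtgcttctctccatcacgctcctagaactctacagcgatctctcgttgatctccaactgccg
Mt1 held 3 matches, which began at positions -133, -109 and -55 from the start, and Mt2A held 2, at -165 and -55. This short motif was in 28.0% of the promoters of tested genes, so a match is a description only. A single arm of the steroid receptor element, TGTTCT on either strand, was in 0 of 23 promoters of the glucocorticoid list and 1 of 15 of the progesterone list, against 11.9% of the promoters of tested genes, and elements farther from the start were not searched. Among 15 genes of metallothioneins and zinc handling these 2 fell and Slc30a1 rose, against 4.75% lower and 3.77% higher over all genes.

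The other members of this list that fell have different functions. Tnfaip3, a deubiquitinase that dampens nuclear factor kappa B, had levels of 7.3, 7.02 and 7.24 in RU PeF against 10.12, 9.67 and 9.11 in control PeF (-2.45 ± 0.22, adjusted p = 3.08e-06). Klf9, a zinc finger transcription factor, had levels of 10.21, 9.77 and 9.71 in RU PeF against 11.01, 10.61 and 11.51 in control PeF (-1.15 ± 0.18, adjusted p = 0.000819). Fkbp5, a co-chaperone that feeds back on the receptor, had levels of 9.51, 9.33 and 9.32 in RU PeF against 10.99, 10.49 and 10 in control PeF (-1.11 ± 0.21, adjusted p = 0.00302). RU PeF lay below every control for all 3 genes, although Fkbp5 lost its call with median scaling and its second probe set gave -0.43.

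Tsc22d3, known as GILZ, fell by 1.8 ± 0.5 (adjusted p = 0.0374), with levels of 7.44, 6.79 and 7.55 in RU PeF against 10.32, 9.19 and 7.66 in control PeF. Its call was lost when any array of the comparison other than control PeF 3 was left out. Pdk4, a kinase that holds back pyruvate oxidation, fell by 2.04 ± 0.58, Glul, glutamine synthetase, by 1.31 ± 0.38, the transcription factor Cebpd by 1.19 ± 0.27, the phosphatase Dusp1 by 0.96 ± 0.28, the clock gene Per1 by 0.78 ± 0.2, and the kinase Sgk1 by 0.68 ± 0.15. Rgs2 was the member that rose, by 1.12 ± 0.32 on its brighter probe set. Errfi1 (-0.91), Anxa1 (-0.74), Bcl6 (-0.72) and Nfkbia (-0.56) were lower in value but did not pass. In RU PeF against IM PeF 11 of the 24 were lower and 1 higher (background 3.84% and 2.17%), and Nfkbia, the inhibitor of nuclear factor kappa B, was lower by 1.03 there (adjusted p = 0.0102).

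**Figure D2:**
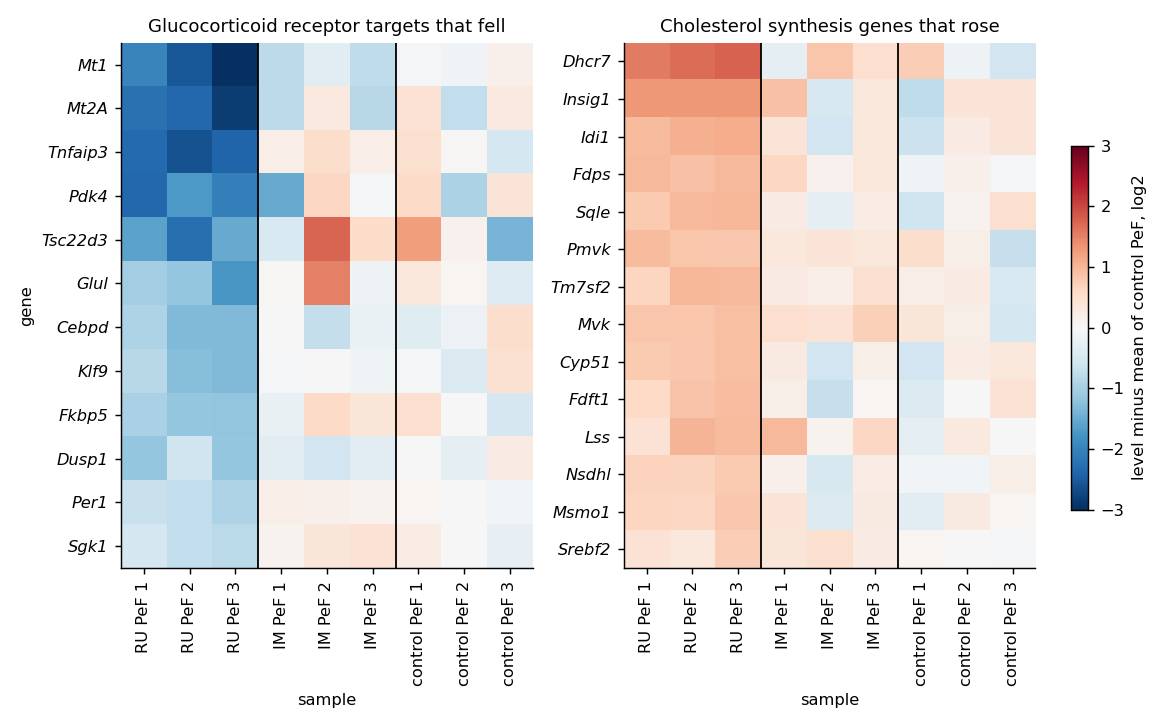
Level of each gene in each 22:00 sample minus the gene's mean in control PeF (log2, colour scale from -3 to 3), for the 12 glucocorticoid receptor targets that fell and the 14 cholesterol synthesis genes that rose. The genes shown were selected for their difference, so the RU PeF columns are blue on the left and red on the right by choice, and the IM PeF columns show how the same genes stood there.

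Steroid synthesis genes moved in both directions. Of 16 tested, 3 rose and 2 fell, against 3.77% higher and 4.75% lower over all genes. Star, which carries cholesterol into mitochondria, had levels of 12.79, 13.18 and 12.99 in RU PeF against 12.13, 12.06 and 12.07 in control PeF (0.9 ± 0.14, adjusted p = 0.000887). All RU PeF arrays were above the controls for Star. Akr1c3, listed as the rat 20α-hydroxysteroid dehydrogenase Akr1c18 that inactivates progesterone, had levels of 12.29, 12.26 and 12.33 in RU PeF against 9.92, 10.33 and 11.33 in control PeF (1.77 ± 0.34, adjusted p = 0.00378). Gata4, a transcription factor of gonadal cells, rose by 1.01 ± 0.22.

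Nr5a2, known as LRH-1, a nuclear receptor of granulosa cells, fell by 1.98 ± 0.34 (adjusted p = 0.00186), with levels of 8.21, 6.96 and 7.51 in RU PeF against 9.86, 9.56 and 9.2 in control PeF. A second probe set of Nr5a2 fell by 1.19 and the third gave 0.22. Tspo, a cholesterol-binding protein of mitochondria, fell by 1.06 ± 0.24. Cyp11a1, the side-chain cleavage enzyme, stood at 12.89, 12.81 and 12.91 in RU PeF against 13.09, 13.05 and 12.84 in control PeF, and its difference of -0.12 ± 0.09 did not pass. Hsd3b1 (0.19), Cyp17a1 (-0.24) and the aromatase Cyp19a1 (0.61 ± 0.49) did not pass.

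Of 21 cholesterol synthesis genes 14 rose, 0 fell and 7 did not pass, against 3.77% higher over all genes, and all 21 differences were positive, with a median of 0.8 against 0.05 over all genes. The count was 12 with median scaling (median 1.09, all genes 0.31) and 0 with the deposited signals (median 1.67, all genes 0.83), and it was 3 without RU PeF 3, 4 without RU PeF 2, 7 without RU PeF 1 and 7 without control PeF 1. Early steps of the mevalonate pathway held Mvk (0.86 ± 0.22), Pmvk (0.87 ± 0.24), Idi1 (1.05 ± 0.26) and Fdps, farnesyl diphosphate synthase. Fdps had levels of 11.2, 11.1 and 11.21 in RU PeF against 10.11, 10.39 and 10.19 in control PeF (0.94 ± 0.14, adjusted p = 0.000573).

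Later steps to cholesterol held Fdft1 (0.8), Sqle (0.91), Lss (0.8), Cyp51 (0.83), Tm7sf2 (0.87), Msmo1 (0.69), Nsdhl (0.71) and Dhcr7, the last reductase of the pathway. Dhcr7 had levels of 10.25, 10.35 and 10.45 in RU PeF against 9.43, 8.52 and 8.1 in control PeF (1.67 ± 0.27, adjusted p = 0.00106). Insig1, which holds the sterol-sensing complex in the endoplasmic reticulum, stood at 10.73 on all 3 RU PeF arrays against 8.67, 9.83 and 9.82 in control PeF (1.29 ± 0.29). Srebf2, the transcription factor that drives the pathway, rose by 0.5 ± 0.13. Mvd (0.38), Insig2 (0.41), Hsd17b7 (0.43), Acat2 (0.44), Ebp (0.55), Sc5d (0.62) and Scap (0.17) did not pass. In RU PeF against IM PeF 9 of the 21 were higher and 0 lower (background 2.17% and 3.84%), with a median of 0.57.

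The promoters of 3 genes that rose are shown in the same form, with the CCAAT box, the binding sequence of nuclear factor Y, which works beside sterol-regulated factors, in capitals on either strand. Fdps lies at chr2:176804767-176805066, Idi1 at chr17:66547475-66547774 and Insig1 at chr4:8057720-8058019, all on the minus strand.
Fdps promoter: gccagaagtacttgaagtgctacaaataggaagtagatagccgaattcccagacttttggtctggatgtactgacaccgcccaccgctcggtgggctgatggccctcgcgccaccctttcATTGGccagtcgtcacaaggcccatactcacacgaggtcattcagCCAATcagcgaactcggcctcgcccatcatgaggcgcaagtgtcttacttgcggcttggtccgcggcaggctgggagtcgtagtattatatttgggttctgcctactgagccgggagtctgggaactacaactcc
Idi1 promoter: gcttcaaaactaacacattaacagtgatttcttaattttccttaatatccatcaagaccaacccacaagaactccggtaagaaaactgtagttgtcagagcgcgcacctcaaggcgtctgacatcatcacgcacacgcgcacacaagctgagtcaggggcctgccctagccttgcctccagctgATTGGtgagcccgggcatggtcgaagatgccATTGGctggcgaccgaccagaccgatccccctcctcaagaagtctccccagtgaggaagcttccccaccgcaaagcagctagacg
Insig1 promoter: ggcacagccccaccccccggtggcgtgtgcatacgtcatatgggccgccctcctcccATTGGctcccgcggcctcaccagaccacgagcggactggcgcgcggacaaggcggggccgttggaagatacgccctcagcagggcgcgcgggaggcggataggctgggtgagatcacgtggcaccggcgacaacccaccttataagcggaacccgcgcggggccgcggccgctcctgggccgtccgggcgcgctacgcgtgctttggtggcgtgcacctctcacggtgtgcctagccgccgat
Matches began at -130 and -85 in Fdps, at -66 and -35 in Idi1 and at -193 in Insig1. A CCAAT box was in 14 of 18 cholesterol synthesis promoters (77.8%) and in 9 of 11 of the members that rose (81.8%), against 38.0% of the promoters of tested genes. The core of the sterol response element, TCACNCCAC, was in 0 of the 18 and in 1.14% of the promoters of tested genes, which says only that these letters are not in this window.

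Cholesterol uptake, transport and efflux did not move one way. Of 15 genes 2 rose and 2 fell, against 3.77% higher and 4.75% lower over all genes, and with median scaling 1 rose and 0 fell. Nr1h2, the oxysterol receptor LXRβ, rose by 0.83 ± 0.21 and the endosomal carrier Stard3 by 0.56 ± 0.15, while Mylip, which marks lipoprotein receptors for degradation, fell by 0.83 ± 0.23 and the very low density lipoprotein receptor Vldlr by 0.68 ± 0.2. The calls of Stard3 and Vldlr were lost without control PeF 3 (0.4 and -0.46). Other probe sets of Vldlr, at -0.57, -0.48 and -0.29, did not pass.

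**Figure D3:**
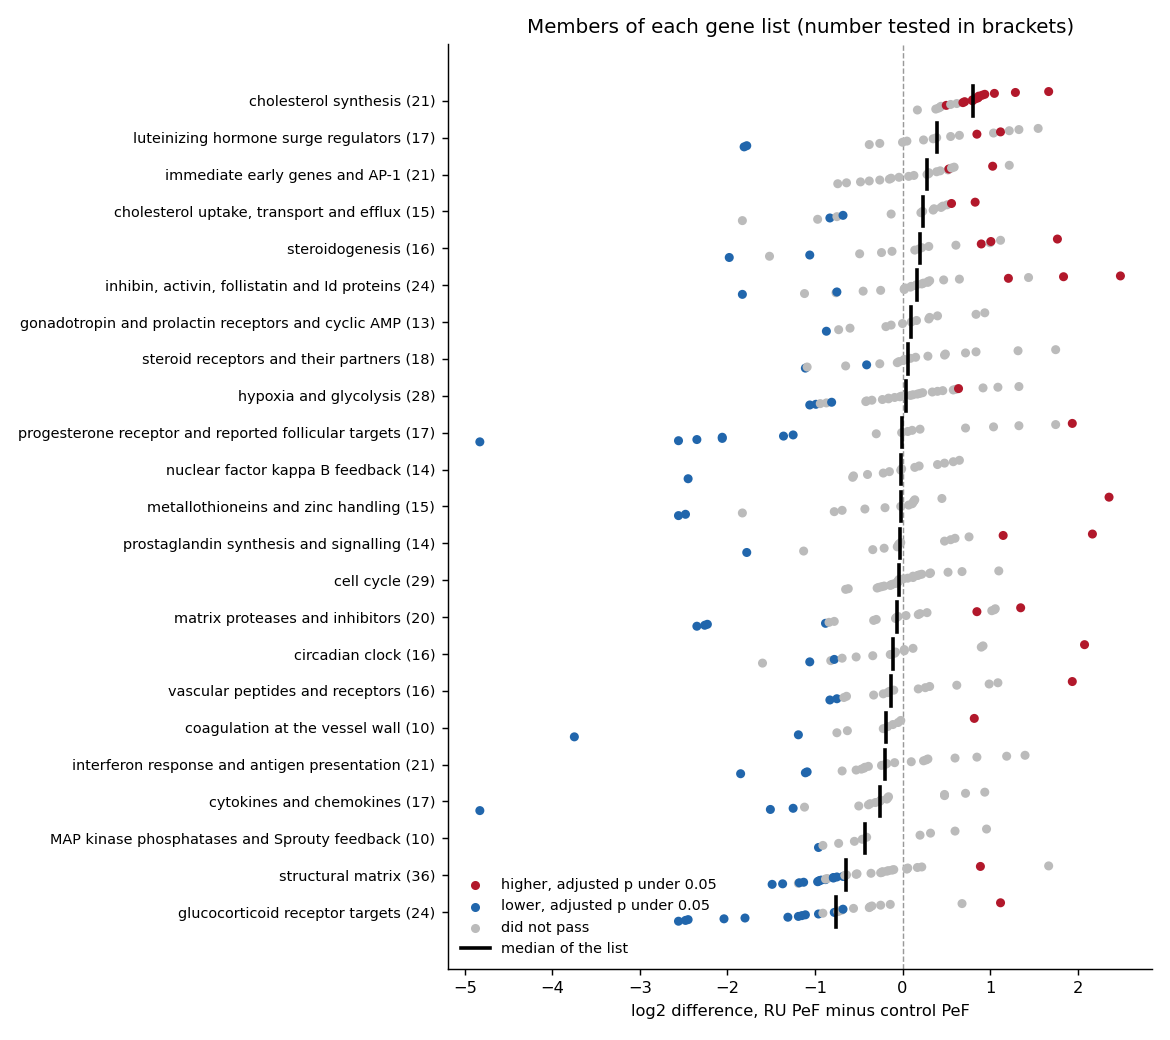
Difference of each tested member of 23 gene lists (log2, RU PeF minus control PeF), with lists ordered by their median, which the black bar marks, and colour for members that passed. Cholesterol synthesis lies wholly to the right of 0 with a median of 0.8, and glucocorticoid receptor targets (-0.76) and structural matrix (-0.65) lie farthest to the left.

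The listed genes of the LH response did not move one way. Of 17 genes of the LH surge 2 rose, 2 fell and 13 did not pass, against 3.77% higher and 4.75% lower over all genes. The list median was 0.39 against 0.05 over all genes. Ptgs2, cyclooxygenase 2, had levels of 12.63, 12.48 and 11.61 in RU PeF against 9.92, 12.27 and 12.87 in control PeF (0.55 ± 0.82). Areg had 11.14, 10.67 and 10.54 in RU PeF against 8.03, 9.31 and 11.87 in control PeF (1.04 ± 0.81), and Ereg, another epidermal growth factor-like ligand, differed by 1.33 ± 0.91. Controls of these genes ran over several log2 units, with control PeF 1 the lowest and control PeF 3 the highest.

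The hyaluronan-binding protein Tnfaip6 stood at 10.5, 10.18 and 10.42 in RU PeF against 8.1, 9.15 and 9.22 in control PeF, without overlap, and did not pass (1.55 ± 0.53, adjusted p = 0.0815). Has2 (0.39), Il6 (0.72), Egr1 (1.22), the LH receptor Lhcgr (0.84) and Vegfa (-0.17) did not pass. The member with the smallest p was Egfr, the receptor of the epidermal growth factor-like ligands, with levels of 10.28, 9.87 and 9.42 in RU PeF against 12, 11.67 and 11.33 in control PeF (-1.81 ± 0.19, adjusted p = 2.15e-05). Ptges, which makes prostaglandin E2, was not above background in RU PeF and at least 2.52-fold lower (adjusted p = 0.0189), a call lost without control PeF 3. Its second probe set gave 0.03. Among 14 prostaglandin genes Ptges was the member that fell, and Akr1b1 (1.15 ± 0.29) and Ptgds (2.17 ± 0.59) rose. Over all genes 4.75% were lower and 3.77% higher. The call of Ptgds, prostaglandin D synthase, was lost without control PeF 3 (1.52, adjusted p = 0.109).

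Prolactin receptor (Prlr) fell by 0.87 ± 0.15, the member called among 13 genes of gonadotropin and prolactin receptors and cyclic AMP. In the inhibin and transforming growth factor family 3 of 24 rose and 2 fell, against 3.77% higher and 4.75% lower over all genes. Inhbb, the βB subunit of inhibin and activin, had levels of 8.91, 9.25 and 8.46 in RU PeF against 7.02, 7.13 and 6.94 in control PeF (1.84 ± 0.16, 3.59-fold, adjusted p = 3.08e-06), and stood at 6.81, 6.86 and 7.18 in IM PeF. Inha, the shared α subunit, at 13.49, 13.47 and 13.22 in RU PeF against 12.87, 13.31 and 13.27 in control PeF, did not pass, and neither did Inhba (1.44) or Fst (0.29). Smad3, which carries the activin signal to the nucleus, rose by 1.21 ± 0.18, while Tgfb2 fell by 1.83 ± 0.54 and the receptor Bmpr1a by 0.75 ± 0.19. The call of Bmpr1a was lost without control PeF 3 (-0.66).

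Among immediate early genes 2 of 21 rose and 0 fell, against 3.77% higher and 4.75% lower over all genes. Those that rose were Jun (1.03 ± 0.2) and Jund (0.53 ± 0.09), subunits of the factor AP-1. Fos (-0.26) and Nr4a1 (0.07) did not pass. Of 29 cell cycle genes 0 passed in either direction, with a median of -0.04. The list of 10 MAP kinase phosphatases and Sprouty genes had Dusp1 as the member called.

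Of 36 structural matrix genes 14 fell, 1 rose and 21 did not pass, against 4.75% lower and 3.77% higher over all genes, and 29 differences were negative, with a median of -0.65. With median scaling 3 fell (median -0.32, all genes 0.31) and with the deposited signals 0 fell (median 0.22, all genes 0.83), and 8 fell without RU PeF 3. Fibrillar collagens held Col3a1 (9.82, 9.98 and 9.64 in RU PeF against 11.05, 10.93 and 10.84 in control PeF, -1.13 ± 0.15, adjusted p = 0.000189), Col1a1 (-0.96 ± 0.16), Col1a2 (-0.79), Col5a2 (-0.88) and the fibril-associated Col12a1 (-1.49 ± 0.27). Lumican (Lum), a proteoglycan of collagen fibrils, had levels of 9.67, 9.42 and 8.77 in RU PeF against 10.63, 10.58 and 10.75 in control PeF (-1.37 ± 0.19). Decorin (Dcn, -0.93), fibrillin (Fbn1, -0.97), fibronectin (Fn1, -0.75), Mgp (-0.66), Nid1 (-0.79), Col6a1 (-0.95), Col6a3 (-0.68) and the crosslinking enzyme Loxl1 (-1.18) fell too. Lama1, a laminin chain of basement membranes, rose by 0.89 ± 0.26. Basement membrane collagens Col4a1 (-0.53) and Col4a2 (-0.23) did not pass.

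Among 20 matrix proteases and inhibitors 4 fell and 2 rose, against 4.75% lower and 3.77% higher over all genes. Adamts9 fell by 2.26 ± 0.38 (8.64, 7.92 and 7.8 in RU PeF against 11.21, 10.69 and 9.23 in control PeF). Adamts4, like Adamts1 an enzyme that cleaves proteoglycans, stood at 6.31, 6.33 and 5.52 in RU PeF against 8.06, 6.67 and 10.11 in control PeF (-2.23 ± 0.63, adjusted p = 0.0378). Control PeF 3 was the highest array for Adamts4, and without it the difference was -1.31 and did not pass (adjusted p = 0.129). The metalloproteinase inhibitor Timp2 fell by 0.88 ± 0.2, while Timp1 rose by 0.85 ± 0.18 and Plaur, the urokinase receptor, by 1.35 ± 0.4. Plat (-0.08 ± 0.45) and Plau (-0.84 ± 0.47), the plasminogen activators, did not pass.

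Among the 13 markers of smooth muscle or pericytes tested, 4 fell and 0 rose, against 4.75% lower and 3.77% higher over all genes. Their median was -0.38. Tagln (transgelin) had levels of 5.78, 5.61 and 5.03 in RU PeF against 7.28, 7.14 and 7.4 in control PeF (-1.8 ± 0.24, adjusted p = 0.000189), and Myh11, smooth muscle myosin, fell by 2.09 ± 0.32, Mylk by 1.55 ± 0.21 and Cnn1 by 1.33 ± 0.3. In RU PeF against IM PeF, Tagln (-1.57) and Mylk (-0.88) were called lower. Myh11 (-0.58, limma adjusted p = 0.374) and Cnn1 (-0.87, adjusted p = 0.117) did not pass there, and Myh11 levels in IM PeF, at 5.08, 4.36 and 5.11, overlapped RU PeF. Acta2 (-0.36 ± 0.3) did not pass. The log2 summed signal of the 13 was 9.64, 9.6 and 9.62 in RU PeF against 10.37, 10.24 and 10.4 in control PeF, with IM PeF between them at 10.05, 9.96 and 9.87. The 14 endothelial markers summed to 10.1, 10.29 and 10.02 in RU PeF against 10.59, 10.58 and 10.65 in control PeF. IM PeF, at 10.36, 10.21 and 10.4, was below every control too and overlapped RU PeF. In RU PeF against IM PeF 0 of the 14 passed. Against control PeF 13 had a negative difference and 2 passed, the angiopoietin receptor Tek (-0.83 ± 0.21) and Emcn (-0.66 ± 0.17). Both lost their calls without control PeF 3 (-0.65 for Tek and -0.55 for Emcn), and with median scaling 0 of the 14 passed. The part of these cell types in the lower matrix and vessel genes was not tested.

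Of 10 theca markers Pdgfra, a growth factor receptor of stromal cells, fell by 2.08 ± 0.23 (7.72, 7.62 and 7.17 in RU PeF against 9.7, 9.08 and 9.98 in control PeF), Nr2f2, also known as COUP-TFII, fell by 0.92 ± 0.13, and Star rose. Theca markers as a sum, led by steroid enzymes, ran from 14.82 to 14.97 in RU PeF and from 14.73 to 14.8 in control PeF. Of 14 granulosa markers 1 rose (Inhbb) and 2 fell (Nr5a2 and the gap junction protein Gja1, -0.53 ± 0.13, a call lost without control PeF 3), and their sum ran from 14.48 to 14.96 in RU PeF and from 14.29 to 14.77 in control PeF. Leukocyte markers summed to 9.16 to 9.47 in RU PeF and 9.35 to 9.61 in control PeF, with overlap. Among 14 of them Cd14, a receptor for bacterial lipopolysaccharide, rose by 2.18 ± 0.33, while Cd74 fell by 1.09 ± 0.3 and Mrc1, the mannose receptor of macrophages, was not above background in RU PeF and at least 2.22-fold lower. For the theca, granulosa and leukocyte counts the background over all genes was 4.75% lower and 3.77% higher. Of the 8 cumulus, 3 oocyte, 2 erythrocyte and 3 surface epithelium markers tested 0 passed. All 8 cumulus differences were positive (median 0.84), as were all 3 oocyte ones (median 1.19), and their part in the results was not tested. The cumulus sum ran from 14.02 to 14.37 in RU PeF and from 13.21 to 14.68 in control PeF, and the oocyte sum from 5.99 to 7.28 in RU PeF and from 3.53 to 6.45 in control PeF, with overlap.

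**Figure D4:**
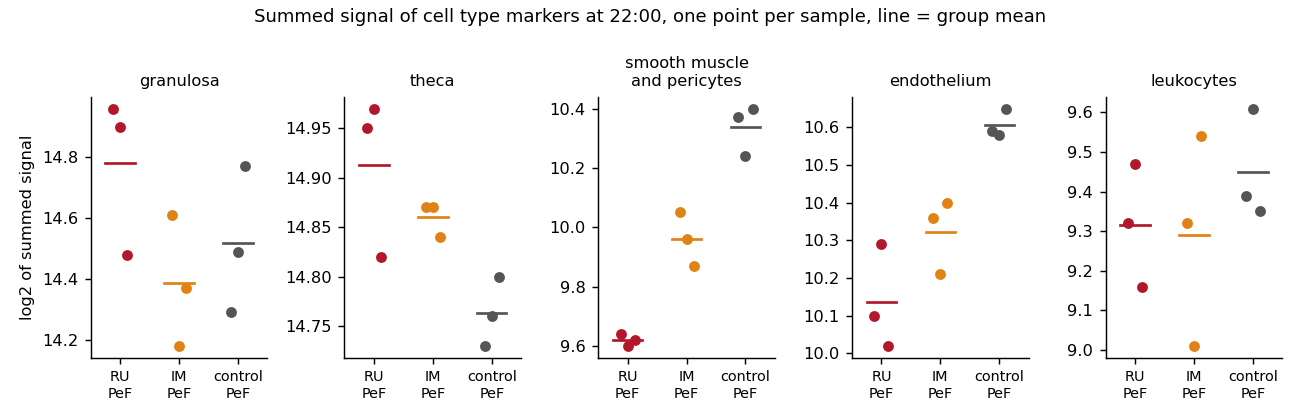
Log2 of the summed normalized signal of each cell type's markers in RU PeF, IM PeF and control PeF, 1 point per sample and a line at each group mean, each panel on its own axis. Smooth muscle and endothelial sums are lower in RU PeF than in control PeF without overlap between those groups, and leukocyte sums overlap. IM PeF lies between those groups for smooth muscle, and overlaps RU PeF for endothelium.

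In the cytokine and chemokine list 3 of 17 fell, which were Cxcr4, the interleukin 6 receptor Il6r (-1.51 ± 0.29) and the decoy chemokine receptor Ackr3 (-1.25 ± 0.36). In the list of interferon response and antigen presentation 3 of 21 fell, the class II genes RT1-Ba (-1.85 ± 0.5), RT1-Da (-1.11) and Cd74 (-1.09), all by calls that were lost without control PeF 3, and other probe sets of RT1-Ba, from -0.29 to 0.3, did not pass. In the nuclear factor kappa B list Tnfaip3 was the member called of 14. Of 16 vascular peptides and receptors Tek and Nrp1 (-0.75) fell and Edn2 rose. A dimmer probe set of Nrp1 gave 0.58 and did not pass (limma adjusted p = 0.307). Of 28 hypoxia and glycolysis genes 3 fell, the collagen hydroxylase P4ha2 (-1.06 ± 0.21), Pfkfb3 (-0.99 ± 0.19) and Pgk1 (-0.81 ± 0.22), and the phosphofructokinase Pfkp rose by 0.64 ± 0.15. Over all genes 4.75% were lower. With median scaling P4ha2, Pfkfb3 and Pgk1 lost their calls and 0 of the list fell, and Pgk1 lost its call without control PeF 3 too. Dimmer probe sets of P4ha2 (0.01) and Pgk1 (-0.61) did not pass.

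In the clock list 2 of 16 fell and 1 rose, against 4.75% lower and 3.77% higher over all genes. With median scaling Per1 and Per2 lost their calls and 0 fell. Per2, a repressor of the clock, had levels of 6.1, 5.92 and 5.46 in RU PeF against 7.39, 6.93 and 6.34 in control PeF (-1.06 ± 0.27, adjusted p = 0.0205). Per1, a repressor whose transcription glucocorticoids are known to raise, had levels of 8.26, 8.18 and 8 in RU PeF against 8.98, 8.95 and 8.85 in control PeF. Bhlhe40, a repressor driven by the clock, rose by 2.08 ± 0.42. Bmal1 (0.9) and Dbp (-0.08) did not pass.

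The RU486 difference was not the same at both times for 464 of 10391 genes (4.47%) in the interaction test, and for 31 of the genes named by rule, 30 of them called at 22:00. Among the 31, Fibin passed on a probe set other than the one counted, so it is not among the 464. Of the 464 genes 227 had a difference that was higher at 22:00 (2.18%) and 237 one that was lower (2.28%). By probe sets the test called 733 (4.04%), 336 higher (1.85%) and 397 lower (2.19%). At estrus the contrast is RU UF against control PoF, and rupture separates those groups as well. That contrast called 1041 genes (10.0%), 474 higher (4.56%) and 567 lower (5.46%), or 1584 probe sets (8.72%), 771 higher (4.25%) and 813 lower (4.48%). Edn2, higher in RU PeF, was lower at estrus (1.94 at 22:00 and -2.42 at estrus, interaction adjusted p = 0.0015), and Bhlhe40 (2.08 and -1.89, adjusted p = 0.00106), Timp1 (0.85 and -0.97, adjusted p = 0.000828) and Pfkp (0.64 and -1.36, adjusted p = 0.000209) turned in the same way, as did Tmem139 (2.4 and -1.58, adjusted p = 0.00278). Per1 (-0.78 and 0.92, adjusted p = 0.00185) and Per2 (-1.06 and 1.15, adjusted p = 0.0027) turned the other way. For Mt1 (-2.56 and 0.69), Egfr (-1.81 and 0.27), Klf9 (-1.15 and 0.52), Fkbp5 (-1.11 and 0.07), Inhbb (1.84 and -0.21) and Smad3 (1.21 and 0.08) the estrus difference did not pass and the 2 differences were apart by the interaction test. A second probe set of Fkbp5 did not pass at 22:00 (-0.43) and was higher at estrus (0.59, limma adjusted p = 0.0296). Star (0.9 and 1.95, adjusted p = 0.00594) and Tm7sf2 (0.87 and 2.54, adjusted p = 0.00264) differed more at estrus. Cyp19a1, not called at 22:00, was higher at estrus (0.61 and 3.4, adjusted p = 0.0308). Adamts1 (-2.35 and -1.53, adjusted p = 0.251), Epas1 (-2.06 and -2.2, adjusted p = 0.901) and Xlr5c (-5.59 and -6.66, adjusted p = 0.456) were lower at both times, and their differences between times did not pass.

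**Figure D5:**
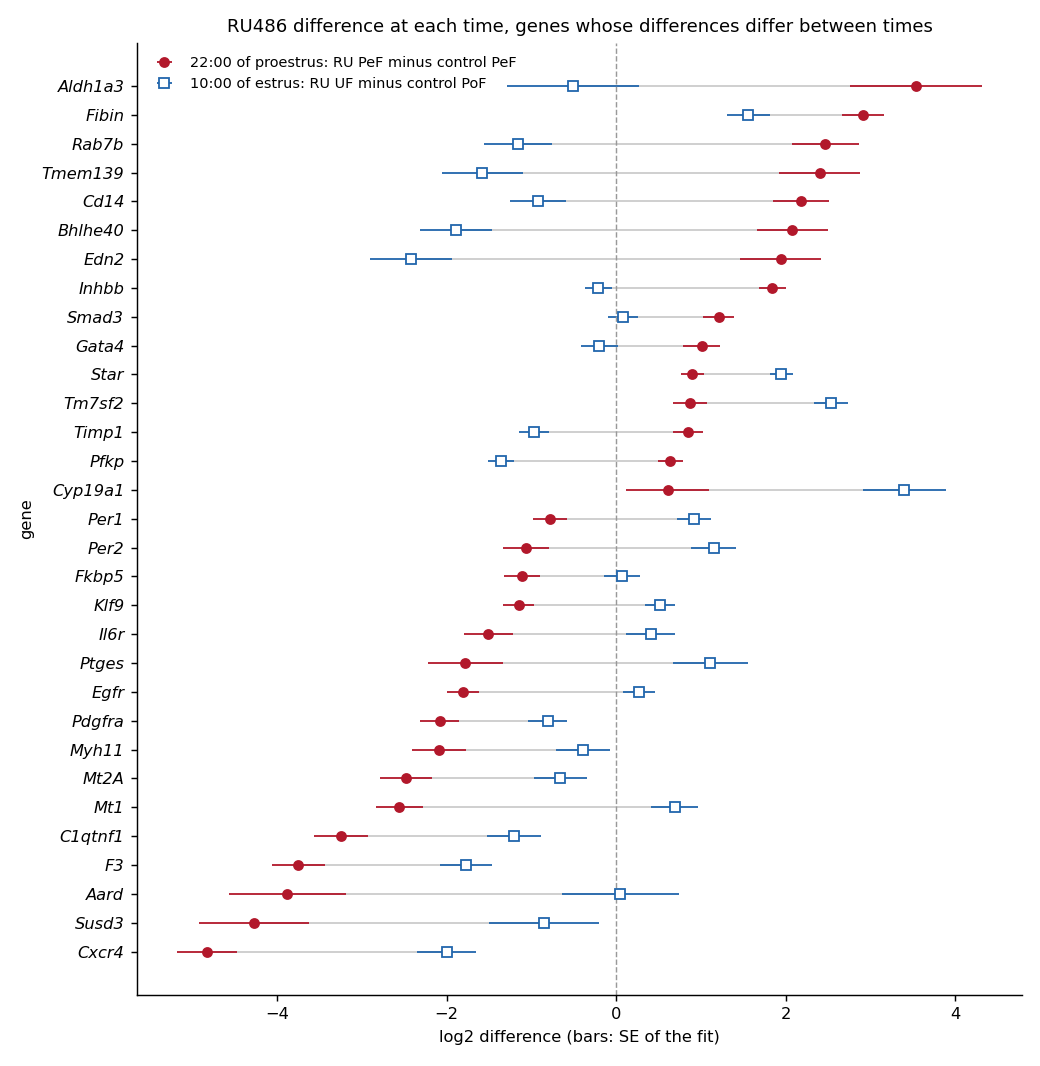
RU486 difference (log2 with its SE) at 22:00 of proestrus (RU PeF minus control PeF, filled) and at 10:00 of estrus (RU UF minus control PoF, open) for the 31 genes named by rule that passed the interaction test. Edn2, Bhlhe40, Tmem139, Timp1 and Pfkp lie to the right of 0 at 22:00 and to the left at estrus, and Per1 and Per2 do the opposite. Fibin is shown by its dimmer probe set.

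Of the 87 probe sets named by rule and called, 50 kept their call when each of the 6 arrays was left out in turn. The 37 that lost it at least once were those of Abcb1a, Ackr3, Akr1b1, Anxa5, Bmpr1a, Cd74, Cnn1, Crisp3, Edn2, Etv1, Gata4, Gja1, Hapln1, Mrc1, Mylip, Nr1h2, Nrp1, Per1, Per2, Pfkp, Pgk1, Pparg, Ppl, Ptgds, Ptges, Rgs2 on its brighter probe set, RT1-Ba, RT1-Da, Snap25, Stard3, Tek, Tgfb1, Timp1, Timp2, Tm7sf2, Tsc22d3 and Vldlr. The number lost was 31 without RU PeF 3, 27 without RU PeF 2 and 21 without RU PeF 1, against 19 without control PeF 1, 9 without control PeF 2 and 12 without control PeF 3. Aard, Aldh1a3, Cxcr4, Fibin, Susd3, Xlr5c and the dimmer probe set of Rgs2 kept their call in every setting tried. Of 36 listed genes called but not named by rule, 12 lost their call without control PeF 3: Adamts4, Dcn, Dusp1, Emcn, Fn1, Lama1, Lss, Mvk, Pdk4, Pgrmc1, Pmvk and Srebf2. With median scaling 44 of all 103 listed genes called lost their call.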

How the data were processed

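Intensity values were deposited by the authors in 1 table of 18 arrays, floored at 1. The submitters' processing notes name MAS5 without a version or a role. The 57 Affymetrix control probe sets were left out, arrays were quantile-normalized, and 3.09 (the 20th percentile) was added before log2. A probe set was kept (18155 were) where 3 or more of 18 arrays had it above that array's median. Group means of all 6 groups were fitted with limma 3.58.1 in R 4.3.3, with a variance trend and Benjamini-Hochberg adjustment. With 3 samples a group, the smallest two-sided p of an exact permutation test is 0.1. A probe set was at background in a group where all 3 arrays were within the level of 27 unspiked control probe sets. Each gene was counted by its brightest probe set. Probe sets were named from the platform annotation: 20826 had 1 symbol, 436 several and 9780 none. The fit was tested on simulated data. The number of arrays limits the precision.

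The samples and gene lists were chosen with earlier results of these data known. The rule named 99 genes: 32 fixed ones (29 measured), the 12 largest rises, the 12 largest falls and up to 4 members per list. Other genes named were chosen after their values were seen. Alternatives were scaling, pseudocount, filter, array weights, variance trend, samples in the fit, arrays left out and the replicate number as a block. Deviations of same-numbered samples from their group means correlated at -0.063, -0.027 and -0.116. With 3 samples a group these values cannot decide whether the numbers pair the samples. Promoter sequences were from RefSeq (GRCr8), found for 8715 of 10391 genes.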

Additional observations from a re-analysis of the deposited data

Results flagged for a closer look

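The RU486 difference at 22:00 (RU PeF minus control PeF) was set against that at estrus (RU UF minus control PoF) in 1 limma fit, and 31 genes named by rule passed the test of the difference between them. At estrus RU UF and control PoF differ in rupture as well as in treatment, which cannot be told apart. Values in parentheses are the 22:00 difference minus the estrus difference in log2 units. Genes called higher at 22:00 and lower at estrus were Edn2 (4.37), Bhlhe40 (3.97), Tmem139 (3.98), Timp1 (1.82) and Pfkp (2). Genes called lower at 22:00 and higher at estrus were Per1 (-1.71) and Per2 (-2.21). Other genes higher in RU PeF, with a smaller or opposite difference at estrus, were Rab7b (3.63), Aldh1a3 (4.04), Cd14 (3.1), Inhbb (2.05), Fibin (1.35), Gata4 (1.21) and Smad3 (1.12). Fibin passed on its dimmer probe set only. Its brighter probe set was higher by 2.67 at 22:00 and 2.15 at estrus, and the difference between times did not pass (0.52, adjusted p = 0.51). Other genes lower in RU PeF, with a smaller or opposite difference at estrus, were Aard (-3.92), Susd3 (-3.42), Mt1 (-3.25), Ptges (-2.89), Cxcr4 (-2.83), Egfr (-2.08), C1qtnf1 (-2.04), F3 (-1.98), Il6r (-1.92), Mt2A (-1.82), Myh11 (-1.7), Klf9 (-1.67), Pdgfra (-1.28) and Fkbp5 (-1.18). Star (-1.05) and Tm7sf2 (-1.68) were higher at both times, and more so at estrus. Cyp19a1 (-2.78), aromatase, was not called at 22:00 and was higher at estrus. The adjusted p of the 31 tests ran from 0.000209 for Pfkp to 0.0456 for Aldh1a3. Control PeF 3, the dimmest array, enters each of them.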

How the results depend on the processing

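The 1345 probe sets called between RU PeF and control PeF became 22 with the deposited signals, 3487 with array quality weights, 2252 without the 3 dimmest arrays and 291 with only the groups of the contrast in the fit, and ran from 623 to 1629 when each array was left out. For RU PeF against IM PeF the 948 became 536 with median scaling (253 higher and 283 lower), 41 with the deposited signals (6 higher and 35 lower) and 3861 with weights, and ran from 486 to 1169 over arrays left out. For the difference between times the 733 became 349 with median scaling (279 higher and 70 lower), 82 with the deposited signals (82 higher and 0 lower), 2463 with weights and 1668 without the dimmest arrays, and ran from 365 to 935. With weights the control PeF mean rests mostly on control PeF 2 (weight 3.96) and the IM PeF mean on IM PeF 3 (7.17). Weights in RU PeF ran from 0.79 to 1.37. The replicate number as a block gave 1128, 851 and 605 calls in the 3 comparisons, and Ackr3, Anxa5, Crisp3 and Vldlr lost theirs. Whether the numbers pair the samples is not known. With the deposited signals, whose median over all genes was 0.83, the difference turned positive for Bmpr1a (0.15), Gja1 (0.29), Nr2f2 (0.01), Nrp1 (0.13), Per1 (0.13), Pgk1 (0.05), Tek (0.02), Timp2 (0.02) and Vldlr (0.2). Of the 87 named calls 65 were kept with median scaling, 86 with a pseudocount of 1 and 37 with only the groups of the contrast, which leaves fewer samples for the spread. The causes were not tested. Probe sets near background, as on control PeF 3, limit the folds of dim genes.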
